A study of Mus musculus with 18 samples.

Results

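The mouse H2 complex is the major histocompatibility complex (MHC), and its transcripts were followed here in CD4+ T cells that lack the nuclear receptors *Nr4a1* and *Nr4a3* and in wild-type (WT) cells of the same animals. Members were all genes of the count table whose symbol begins with H2-, which gave 45 of 55284 named genes. By their symbols 32 of them are class I or class I-like genes, 12 are class II genes and 1, *H2-Ke6*, is a neighbouring gene for a steroid dehydrogenase that is not an MHC gene. All 45 lie on chromosome 17, and the annotation lists 34 of them as protein coding and the others as pseudogenes or polymorphic pseudogenes. Of the 45, 38 had enough reads to be tested, namely 25 class I genes, all 12 class II genes and *H2-Ke6*. The 7 class I genes that were not tested, *H2-M1*, *H2-M11*, *H2-M10.1*, *H2-M10.3*, *H2-M10.4*, *H2-M10.5-ps1* and *H2-M10.6*, had at most 8 reads in any library.

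Competitive bone marrow chimeras, in which irradiated CD45.1+ BoyJ hosts had received a mixture of WT and double-knockout (DKO) marrow with DKO as the minor component, were the source of all cells. DKO marrow came from C57BL/6-background mice with germline recombination of a loxP-flanked *Nr4a1* allele and a germline *Nr4a3* deletion, so that every cell derived from it carries both losses. CD4+CD25- T cells of each genotype were sorted from spleen and lymph node as naive (CD62LhiCD44loFR4loCD73lo) or anergic (CD62LloCD44hiFR4hiCD73hi) cells. Sorted naive cells were also stimulated for 3 h with plate-bound anti-CD3 at 8 μg/ml and anti-CD28 at 2 μg/ml, which engage the T cell receptor and its costimulator. Each of the 6 groups holds 3 libraries, from chimeras 10, 11 and 12, and each chimera gave all 6 of its libraries. The anergic gate is a surface phenotype that several kinds of antigen-experienced CD4+ cells can share, and the host age at sorting was not given in the labels.

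The 18 libraries hold between 16122020 and 39752234 counts. *Cd4*, at 365 to 1191 TPM (read counts scaled for gene length and for library size), and *Cd3e*, at 617 to 1335 TPM, were high in every library, whereas *Cd8a* stayed at or below 0.835 TPM. Reads over the whole of *Nr4a1* did not check the deletion, since the DKO stimulated libraries held 5300 to 7343 TPM and the WT ones 2927 to 5443 TPM. The naive and the stimulated WT library of chimera 12 stood apart. Over olfactory and vomeronasal receptor genes they held 776 and 554 CPM (counts scaled for library size), against 1356 to 3117 in the other 16 libraries. Their trimmed mean of M-values (TMM) scaling factors were 0.892 and 0.550. Results that depend on this pair of libraries are given with and without it.

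Class I molecules are a heavy chain, encoded in mice by *H2-K1* and *H2-D1* and by the class Ib genes of the Q, T and M regions, paired with β2-microglobulin (*B2m*). They display peptides cut by the proteasome and carried into the endoplasmic reticulum by the TAP transporter, and nearly all nucleated cells make them. Class II molecules are an α and a β chain (*H2-Aa* with *H2-Ab1*) that load peptides in endosomes with the help of the invariant chain (*Cd74*) and *H2-DM*, which *H2-DO* (*H2-Oa* with *H2-Ob*) holds back. They are made mainly by B cells, dendritic cells and macrophages under the control of the transactivator *Ciita*, and mouse T cells are known for making little of them. Mice of the b haplotype, such as C57BL/6, have a deletion at the start of *H2-Ea* and assemble no E molecule, so that *H2-Eb1* RNA has no surface partner there.

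Promoters of 32 members could be taken from RefSeq (GRCm38.p6), and 6 are printed because the genes downstream moved differently. *H2-Q2* rose most in anergic cells, *H2-D1* and *H2-Q6* are abundant class I genes, *H2-Aa* and *H2-Eb1* rose on stimulation and *H2-Ob* fell. Each is the 200 bases before the RefSeq start of the gene, written 5′ to 3′ on the strand of the gene. For *H2-Q2*, *H2-D1* and *H2-Ob* that start lies inside the longer GENCODE model of the gene. Capitals mark motifs as letter matches on either strand. They are GGGATTCCC (the κB element of class I enhancers), TTTCACTTC (part of an interferon-stimulated response element) and CTGATTGG (the Y box, which reads CCAATCAG on the other strand) in class I genes, and CTAGCAAC (an X box), TGACGTCA (X2) and the Y box in class II genes.
H2-Q2, chr17:35342107-35342306, plus strand: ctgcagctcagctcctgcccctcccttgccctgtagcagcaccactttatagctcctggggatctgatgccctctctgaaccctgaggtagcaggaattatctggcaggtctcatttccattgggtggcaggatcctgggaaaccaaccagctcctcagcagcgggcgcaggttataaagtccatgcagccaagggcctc
H2-D1, chr17:35262894-35263093, plus strand: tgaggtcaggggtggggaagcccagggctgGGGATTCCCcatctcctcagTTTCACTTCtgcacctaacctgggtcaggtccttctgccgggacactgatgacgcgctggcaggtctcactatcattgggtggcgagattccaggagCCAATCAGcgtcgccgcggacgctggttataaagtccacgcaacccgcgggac
H2-Q6, chr17:35424650-35424849, plus strand: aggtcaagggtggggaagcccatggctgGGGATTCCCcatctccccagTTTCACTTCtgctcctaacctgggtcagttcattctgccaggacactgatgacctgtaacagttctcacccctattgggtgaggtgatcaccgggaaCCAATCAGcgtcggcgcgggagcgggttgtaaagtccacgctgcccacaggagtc
H2-Aa, chr17:34287824-34288023, minus strand: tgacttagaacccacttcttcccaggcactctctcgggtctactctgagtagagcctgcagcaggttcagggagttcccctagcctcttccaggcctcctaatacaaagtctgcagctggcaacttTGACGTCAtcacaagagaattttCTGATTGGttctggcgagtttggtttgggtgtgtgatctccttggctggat
H2-Eb1, chr17:34305667-34305866, plus strand: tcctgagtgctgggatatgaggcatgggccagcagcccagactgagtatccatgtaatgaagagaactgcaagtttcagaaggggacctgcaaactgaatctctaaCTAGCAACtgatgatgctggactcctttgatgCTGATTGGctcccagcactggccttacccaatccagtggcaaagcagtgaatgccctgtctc
H2-Ob, chr17:34238705-34238904, plus strand: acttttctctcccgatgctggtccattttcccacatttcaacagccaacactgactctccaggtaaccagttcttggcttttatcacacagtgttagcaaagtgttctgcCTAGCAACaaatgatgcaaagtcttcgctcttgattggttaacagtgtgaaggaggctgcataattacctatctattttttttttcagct

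Over the 23 class I genes with a window of 300 bases (250 before the start and 50 after it), the κB letters were found in 4 (*H2-D1*, *H2-K1*, *H2-Q6* and *H2-Q7*) against 0.353% of all 32851 windows of that length. These 4 are also the 4 class I genes with the highest TPM. The interferon element was found in 7 class I genes (the same 4, *H2-M3*, *H2-Q4* and *H2-Q10*) against 0.505% of windows, and in *H2-D1* it began 150 bases before the start with the κB element at 170. The Y box was found in 14 of 23 class I and 4 of 8 class II genes (*H2-Aa*, *H2-Eb1*, *H2-Eb2* and *H2-Oa*) against 4.10% of windows. The X box was found in 3 class II genes (*H2-Eb1*, *H2-Eb2* and *H2-Ob*) and no class I gene against 1.32%, and X2 in 1 (*H2-Aa*) against 1.79%. AAAGGTCA, the letters that NR4A proteins bind as single molecules, were found in 1 member, far upstream in the window of *H2-Eb1* and on its other strand, against 1.51% of windows. The window of *H2-Q2* held none of the 6 motifs. These are letter matches in a window and not measured binding.

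Class I transcripts were among the abundant RNAs of these cells in every group. Summed over the class I genes they reached 15139 to 19865 TPM per library, and *H2-K1* with *H2-D1*, the classical chains, made up 69.9% to 81.9% of that sum. *H2-K1* stood at 6068, 5760 and 6832 TPM in WT naive cells of chimeras 10, 11 and 12 and at 5746, 5804 and 5762 TPM in DKO naive cells. In anergic cells *H2-K1* was at 5734, 5972 and 5855 TPM (WT) and at 4839, 4813 and 5050 TPM (DKO), so the DKO anergic libraries were the lowest of the 18. The edgeR fit, which scales each library by its TMM factor and takes the chimera into account, put the DKO over WT difference of *H2-K1* in anergic cells at -0.03 on the log2 scale (95% interval -0.63 to 0.58), and the difference was not called. *H2-D1* ranged from 6302 to 8158 TPM and was called in no comparison.

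Below them the class I genes spread over a wide range of levels. By their highest group mean, 4 were above 1000 TPM (*H2-D1*, *H2-K1*, *H2-Q7* and *H2-Q6*), 7 between 100 and 1000 TPM, 5 between 10 and 100 TPM and 16 under 10 TPM. The second tier held *H2-T23*, which encodes Qa-1, *H2-Q5*, *H2-K2*, *H2-M3*, whose product presents formylated peptides, *H2-T22*, a γδ T cell ligand, *H2-Q2* and *H2-T-ps*. *H2-Q2* reached it in DKO anergic cells alone, with a mean of 81.0 TPM in WT anergic cells and of at most 2.21 TPM in the naive and stimulated groups. In that tier *H2-K2* is annotated as a transcribed unprocessed pseudogene, *H2-T-ps* as an unprocessed pseudogene and *H2-Q5* as a polymorphic pseudogene. *B2m*, the shared light chain, lay at 8119 to 10459 TPM and was called in no comparison. Class II transcripts were far scarcer, at 95.7 to 244 TPM summed per library, and none of the 12 reached a group mean of 100 TPM. Of the 12, 7 had a highest group mean between 10 and 100 TPM and 5 were under 10 TPM.

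**Figure D1:**
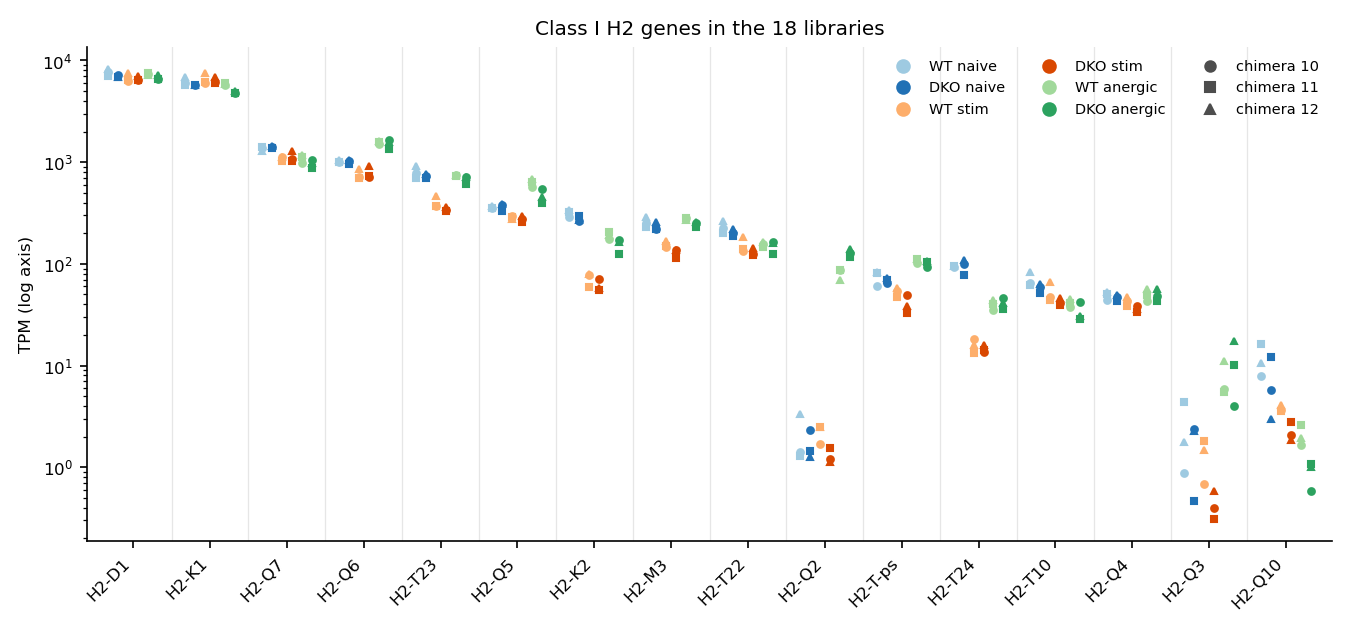
Level of 16 class I genes in TPM (log axis), with 1 point for each of the 18 libraries, coloured by group. *H2-D1* and *H2-K1* sit between 4813 and 8158 TPM in every library, and *H2-Q2* is the gene whose anergic libraries (69.6 to 141 TPM) stand far above the rest (1.13 to 3.37 TPM).

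Anergic cells were compared with naive cells of the same genotype to ask which MHC genes differ in cells with the surface phenotype of anergy. *H2-Q2*, a class Ib gene of the Q region, was by far the member that differed most, *H2-Q10* and *H2-T24* fell in both genotypes, and *H2-K2*, *H2-T22* and *H2-T10* were called lower in WT cells, calls that some alternatives lost. In the WT comparison 2 of 38 members passed upward and 6 downward (adjusted p under 0.05), beside 5.11% and 4.71% of all 33795 genes tested, or 9.82% in either direction. In the DKO comparison 4 members passed upward and 2 downward, beside 6.65% and 2.76% of all genes, or 9.42% in either direction. Over genes with an average above 1 on the log2 CPM scale, 19.1% (WT) and 17.9% (DKO) were called in either direction, a share near that of the members. Class I genes had a median log2 fold change of 0.16 (WT) and -0.29 (DKO) and class II genes of 0.16 and 0.12, beside 0.23 and -0.20 over all genes tested. Only *H2-Q2*, *H2-Q10* and *H2-T24* were called in both genotypes, and the share of all genes called in both was not counted. The 2 comparisons use different libraries.

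*H2-Q2* (ENSMUSG00000091705, protein coding, chr17:35342242-35346762, plus strand, GRCm38) stood at 1.40, 1.29 and 3.37 TPM in the WT naive libraries and at 86.5, 86.9 and 69.6 TPM in the WT anergic libraries of chimeras 10, 11 and 12. In DKO cells it stood at 2.34, 1.44 and 1.27 TPM (naive) and at 127, 117 and 141 TPM (anergic). Every anergic library was above every naive and stimulated library, and the 3 DKO anergic libraries were above the 3 WT anergic ones. The naive values rest on 14 to 75 reads a library and the anergic ones on 981 to 3754. The rise was 5.02 ± 0.39 (log2 fold change ± SE, adjusted p = 5.54e-10) in WT cells and 6.23 ± 0.41 (adjusted p = 2.79e-11) in DKO cells, or 32.5-fold and 75.0-fold, and it was called under all 14 alternatives tried. The log2 fold change ranged from 4.63 to 5.87 (WT) and from 5.61 to 6.66 (DKO) over them. Within chimeras 10, 11 and 12 the WT ratio of TPM was 61.9, 67.3 and 20.7, the lowest in the chimera whose WT naive library stood apart, and without that library and its stimulated partner the WT rise was 5.77. In stimulated cells *H2-Q2* stayed at 1.13 to 2.47 TPM, within the naive range of 1.27 to 3.37 TPM but for 2 DKO stimulated libraries. Of the 75-base windows of its transcripts, 8.07% also occur in transcripts of other genes, so nearly all of its sequence can be told from the other Q genes.

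Its neighbour *H2-Q3*, annotated as an unprocessed pseudogene, rose as well in DKO anergic cells, from 2.40, 0.471 and 2.28 TPM to 4.004, 10.07 and 17.4 TPM (2.28 ± 0.60, adjusted p = 0.0132), with no overlap between the groups. That call was lost without chimera 11 (adjusted p = 0.345). In WT cells *H2-Q3* went from 0.872, 4.40 and 1.77 TPM to 5.88, 5.56 and 11.2 TPM, and its log2 fold change of 1.35 was not called (adjusted p = 0.18). *H2-Q10*, whose product is known as a secreted class I molecule of the liver, moved the other way. It was at 7.90, 16.4 and 10.7 TPM in WT naive and 1.65, 2.63 and 1.96 TPM in WT anergic cells, and at 5.73, 12.1 and 3.00 TPM and 0.583, 1.08 and 0.999 TPM in DKO cells. The naive and anergic libraries did not overlap in either genotype. The differences were -2.65 ± 0.41 (adjusted p = 4.36e-05) and -2.74 ± 0.42 (adjusted p = 3.05e-05), called under all 14 alternatives. However, 12.5% of the transcript windows of *H2-Q10* are shared with other genes. The partners include *H2-Q7*, *H2-Q5* and *H2-K1*, with lowest library values of 875, 259 and 4813 TPM. The part of their reads in the *H2-Q10* counts was not tested.

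Among the T-region genes, *H2-T24* fell in anergic cells of both genotypes. In WT cells *H2-T24* was at 92.4, 96.0 and 94.9 TPM (naive) and 34.9, 40.1 and 44.0 TPM (anergic), a change of -1.48 ± 0.22 (adjusted p = 2.82e-05). In DKO cells it was at 99.1, 77.0 and 109 TPM and 46.7, 35.6 and 40.8 TPM (-1.06 ± 0.22, adjusted p = 0.00137). That call did not hold in edgeR with RLE factors, the scaling that DESeq2 uses (adjusted p = 0.0559), and DESeq2 itself kept it. *H2-T22* and *H2-T10*, a pair of near-identical γδ T cell ligands that share with other genes, mostly each other, 18.5% and 16% of their transcript windows, were lower in WT anergic cells by -0.79 ± 0.25 (adjusted p = 0.0459) and -0.97 ± 0.27 (adjusted p = 0.0176). The *H2-T22* call was lost under 5 of 14 alternatives, and that of *H2-T10* without chimera 10 and without chimera 11 (highest adjusted p = 0.132), so both are near the limit of these libraries. *H2-K2* fell in WT anergic cells from 288, 323 and 337 TPM to 177, 207 and 191 TPM (-0.93 ± 0.24, adjusted p = 0.012), a call lost without chimera 10 (adjusted p = 0.156). In DKO cells *H2-K2* went from 266, 295 and 271 TPM to 171, 124 and 164 TPM, which was short of the threshold (-0.74 ± 0.24, adjusted p = 0.0571). Of the transcript windows of *H2-K2*, 4.99% occur in other genes, *H2-T22* and *H2-D1* among them.

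The 2 genes for Qa-2, *H2-Q6* and *H2-Q7*, moved in opposite directions in TPM and were not called. *H2-Q6* lay at 961 to 1057 TPM in the naive and 1359 to 1645 TPM in the anergic libraries of both genotypes. *H2-Q7* lay at 1291 to 1451 TPM in the naive and 875 to 1170 TPM in the anergic libraries. Neither pair of ranges overlapped, but 17.9% of the windows of *H2-Q6* and 17.0% of those of *H2-Q7* occur in transcripts of other genes, and how the counting treated such reads was not given in the sources used here. *H2-Ke6*, the gene that is not an MHC gene, fell in WT anergic cells by -1.35 ± 0.38 (adjusted p = 0.0215), a call lost in a fit of the compared groups alone (adjusted p = 0.262), without chimera 10 (0.371) and without chimera 11 (0.14), and 65.5% of its windows are shared with the overlapping gene model *Gm20427*.

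**Figure D2:**
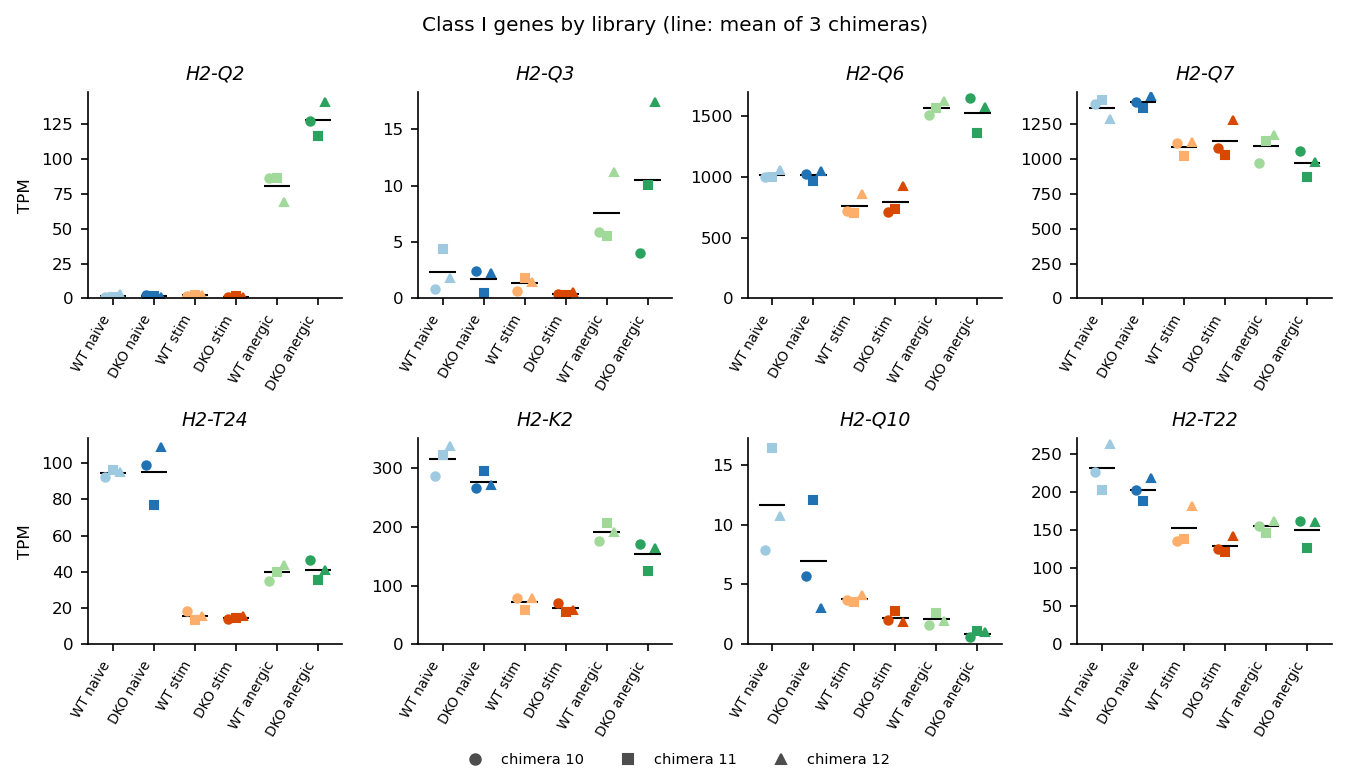
TPM of *H2-Q2*, *H2-Q3*, *H2-Q6*, *H2-Q7*, *H2-T24*, *H2-K2*, *H2-Q10* and *H2-T22* in each of the 18 libraries, with groups by colour, chimeras by marker and the group mean as a line. *H2-Q2* is at 69.6 to 141 TPM in the 6 anergic libraries and at 1.13 to 3.37 TPM in the other libraries, while *H2-T24* falls from 77.0 to 109 TPM in naive cells to 13.2 to 18.2 TPM after stimulation.

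Of the 12 class II genes, 1 passed upward in WT anergic cells and 2 in DKO anergic cells, and 0 passed downward in either, beside 5.11% (WT) and 6.65% (DKO) of all genes upward, and no more is read from these counts. *H2-DMb2*, a β chain of the peptide editor H2-DM, was at 5.16, 9.68 and 3.70 TPM in WT naive and 20.02, 16.3 and 23.6 TPM in WT anergic cells (1.54 ± 0.43, adjusted p = 0.0192), with no overlap. That call was lost without chimera 10, without chimera 11 and with limma on log2(TPM + 0.1), with a highest adjusted p of 0.246. *H2-Oa*, the α chain of the H2-DM inhibitor, was at 11.1, 8.65 and 7.87 TPM in DKO naive and 24.4, 22.3 and 24.8 TPM in DKO anergic cells (1.48 ± 0.37, adjusted p = 0.00801), and in WT cells its difference was 0.86 ± 0.37 (adjusted p = 0.18). *H2-Eb1* rose in DKO anergic cells from 4.63, 7.07 and 6.92 TPM to 14.0, 19.95 and 12.1 TPM (1.49 ± 0.43, adjusted p = 0.0254), while its WT difference was 0.46 (adjusted p = 0.61). The *H2-Oa* and *H2-Eb1* calls were lost without chimera 10 and without chimera 11 (highest adjusted p 0.175 and 0.282), and that of *H2-Eb1* also without the chimera block. *H2-Aa* was at 1.26 to 4.43 TPM in WT and 2.87 to 6.85 TPM in DKO anergic cells, which overlapped the naive range.

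Markers of other cell types were read in the same libraries. Of 9 B-cell markers, 5 were higher and 0 lower in WT anergic cells and 5 higher and 1 lower in DKO anergic cells, beside 5.11% and 6.65% of all genes higher. *Ighm* carried most of their summed level, which was 1062 to 1520 TPM in naive, 160 to 286 TPM in stimulated and 2499 to 4289 TPM in anergic libraries. *Cd22* was at most 0.7 TPM in naive and 28.3 to 49.6 TPM in anergic libraries and *Cd79b* was at 14.6 to 23.8 TPM in anergic ones, whereas the defining marker *Ms4a1* (0.5 to 7.1 TPM) stayed low in all 18 libraries and was not called. The 8 dendritic cell markers summed to 6.80 to 30.9 TPM with *Itgax* at most 0.709 TPM, and 1 was higher and 0 lower in anergic cells of each genotype. Of 6 CD8 T and NK cell markers 1 was higher and 1 lower in each. The shares of all genes called in either direction were 9.82% (WT) and 9.42% (DKO). The 9 monocyte and macrophage markers summed to 35.1 to 55.2 TPM in the anergic libraries, above every naive (14.3 to 31.1 TPM) and stimulated (8.03 to 23.5 TPM) library, while the test against naive cells called 1 of the 9, downward, in WT cells and 1, upward, in DKO cells. The part of these cells in the class II values was not tested, and in sorted bulk RNA fewer cells of a type and less RNA per cell cannot be told apart. *Foxp3*, the regulatory T cell factor, ranged over 447 to 533 TPM in WT anergic and 17.9 to 20.9 TPM in DKO anergic libraries. Of 5 regulatory T cell markers 5 were higher in WT anergic than naive cells and 4 in DKO cells, beside 5.11% and 6.65% of all genes. The part of such cells in the genotype comparison of anergic cells and in the anergic over naive comparisons was not tested.

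Naive cells stimulated for 3 h were compared with unstimulated naive cells to ask how receptor signalling moves the same genes. The class II genes *H2-Aa*, *H2-Ab1* and *H2-Eb1* rose, class II helper chains fell (*H2-DMa*, *H2-Oa* and *H2-Ob*), and 3 class I genes fell (*H2-K2*, *H2-T24* and *H2-Q10*), in both genotypes. Of these *H2-K2* is annotated as a pseudogene. In WT cells 4 members passed upward and 6 downward, beside 7.13% and 4.79% of all genes (11.9% in either direction). In DKO cells 3 passed upward and 9 downward, beside 8.34% and 5.73% of all genes (14.1%). Over genes with an average above 1 on the log2 CPM scale 25.2% (WT) and 29.5% (DKO) were called. Of the members, 9 were called in both genotypes. The share of all genes called in both was not counted, so no more is read from that number. Median log2 fold changes were -0.11 for class I and -0.22 for class II genes in WT cells and -0.35 and -0.59 in DKO cells, beside 0.02 and -0.33 over all genes tested. Across the 4 comparisons of state 18 of the 38 members were called at least once, 9 of class I, 8 of class II and *H2-Ke6*, beside 22.8% of all genes and 44.4% of genes above 1 on the log2 CPM scale.

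*H2-Aa*, the α chain of the A molecule, was at 1.22, 3.89 and 7.19 TPM in WT naive and 12.1, 20.7 and 41.6 TPM in WT stimulated cells of chimeras 10, 11 and 12. In DKO cells it was at 4.86, 5.24 and 5.001 TPM and 32.6, 72.7 and 102 TPM. No stimulated library overlapped the naive ones, and within both stimulated groups chimera 10 was the lowest and chimera 12 the highest. The rise was 2.93 ± 0.58 (adjusted p = 0.000792) in WT and 3.93 ± 0.60 (adjusted p = 3.77e-05) in DKO cells, called under all 14 alternatives. Its partner *H2-Ab1* went from 4.49, 6.58 and 10.0 TPM to 9.13, 15.4 and 22.8 TPM in WT cells (1.42 ± 0.42, adjusted p = 0.0246), with the highest naive library above the lowest stimulated one. In DKO cells *H2-Ab1* went from 5.44, 9.03 and 9.25 TPM to 19.6, 40.3 and 51.5 TPM (2.48 ± 0.43, adjusted p = 0.000178).

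*H2-Eb1* showed the same pattern, at 3.55, 4.71 and 7.20 TPM in WT naive and 6.70, 10.0 and 17.6 TPM in WT stimulated cells (1.40 ± 0.43, adjusted p = 0.0323). In DKO cells it was at 4.63, 7.07 and 6.92 TPM and 13.4, 30.3 and 34.4 TPM (2.29 ± 0.44, adjusted p = 0.000515). In WT cells neither *H2-Ab1* nor *H2-Eb1* was called without the WT stimulated library of chimera 12 (0.86, adjusted p = 0.277, and 0.74, adjusted p = 0.374), nor without chimera 11 (1.44, adjusted p = 0.156, and 1.46, adjusted p = 0.183) nor with RLE factors (1.35, adjusted p = 0.0524, and 1.33, adjusted p = 0.0608). Without the naive and the stimulated WT library of chimera 12 *H2-Ab1* was called (1.22, adjusted p = 0.0402) and *H2-Eb1* was not (1.08, adjusted p = 0.059), and with no low-count filter *H2-Eb1* was not called (adjusted p = 0.0669). In DKO cells both were called under all 14 alternatives. *H2-Aa*, *H2-Ab1* and *H2-Eb1* share 0% of their transcript windows with other genes. The 3 chains took 6.28% to 14.3% of the summed class II TPM in naive libraries and 29.2% to 77.1% in stimulated ones. *Cd74*, the invariant chain, rose by 1.31 ± 0.36 (adjusted p = 0.0158) and 1.20 ± 0.36 (adjusted p = 0.0236), and *Ciita* was at most 2.4 TPM in any library and was not called. Over the stimulated libraries *Ms4a1* was at 4.8, 4.8 and 0.9 TPM (WT) and 3.8, 3.9 and 2.1 TPM (DKO). Of the 9 B-cell markers 0 were higher after stimulation in either genotype, beside 7.13% (WT) and 8.34% (DKO) of all genes. Lower were 2 (WT) and 3 (DKO), beside 4.79% and 5.73% of all genes. The WT value of 0.9 TPM is from the library that stood apart, where the dendritic cell and the monocyte and macrophage sums (6.80 and 8.03 TPM) were also the lowest of the 18, and the part of such cells in the class II rise was not tested.

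The helper chains *H2-DMa*, *H2-Ob* and *H2-Oa* fell in both genotypes. *H2-DMa*, the α chain of H2-DM, was at 69.3, 66.5 and 77.6 TPM in WT naive and 15.7, 13.1 and 17.6 TPM in WT stimulated cells, and at 81.6, 84.8 and 81.4 TPM and 19.1, 14.6 and 18.9 TPM in DKO cells. Every stimulated library was far below every naive one (-1.96 ± 0.26, adjusted p = 5.65e-06, and -1.95 ± 0.26, adjusted p = 5.05e-06), under all 14 alternatives. Its exons overlap those of *Brd2* on the other strand, whose own differences of 0.41 and 0.70 were not called (adjusted p 0.445 and 0.0607). *H2-Ob*, the β chain of H2-DO, fell from 41.96, 47.2 and 50.9 TPM to 24.6, 19.7 and 26.4 TPM in WT cells (-0.76 ± 0.23, adjusted p = 0.0335) and from 64.2, 56.7 and 68.3 TPM to 24.2, 24.001 and 25.96 TPM in DKO cells (-1.05 ± 0.23, adjusted p = 0.00228). The WT call was lost under 5 alternatives and the DKO call under 3, among them leaving out chimera 10 or 11 (highest adjusted p 0.433 and 0.172). *H2-Oa* fell by -1.51 ± 0.38 (adjusted p = 0.00723) and -1.37 ± 0.37 (adjusted p = 0.0127), from 7.66 to 11.1 TPM in naive to 1.52 to 3.60 TPM in stimulated libraries, and both calls were lost without chimera 10 and without chimera 11 (highest adjusted p 0.251 and 0.325).

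The β chains of H2-DM were called lower in DKO cells alone, *H2-DMb1* by -1.52 ± 0.38 (adjusted p = 0.00684) and *H2-DMb2* by -1.33 ± 0.43 (adjusted p = 0.0378), with WT differences of -0.80 and -0.17. The genotype difference in the response was called for neither, and 15.8% of the windows of *H2-DMb1* occur in *H2-DMb2*, while 16.1% of those of *H2-DMb2* occur in *H2-DMb1* or other genes. The *H2-DMb1* call was lost without chimera 10 or 11 (highest adjusted p = 0.196) and that of *H2-DMb2* under 5 alternatives, each of the 3 chimeras among them (highest adjusted p = 0.187). *H2-Ea*, *H2-Eb2*, *H2-Pa* and *H2-Pb* had at most 66 reads in a library and were called in no comparison of the fit of all 18 libraries. *H2-DMa* with *H2-Ob* made up 68.2% to 75.5% of the class II TPM in naive libraries, 18.4% to 42.04% in stimulated ones and 56.8% to 61.6% in anergic ones.

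**Figure D3:**
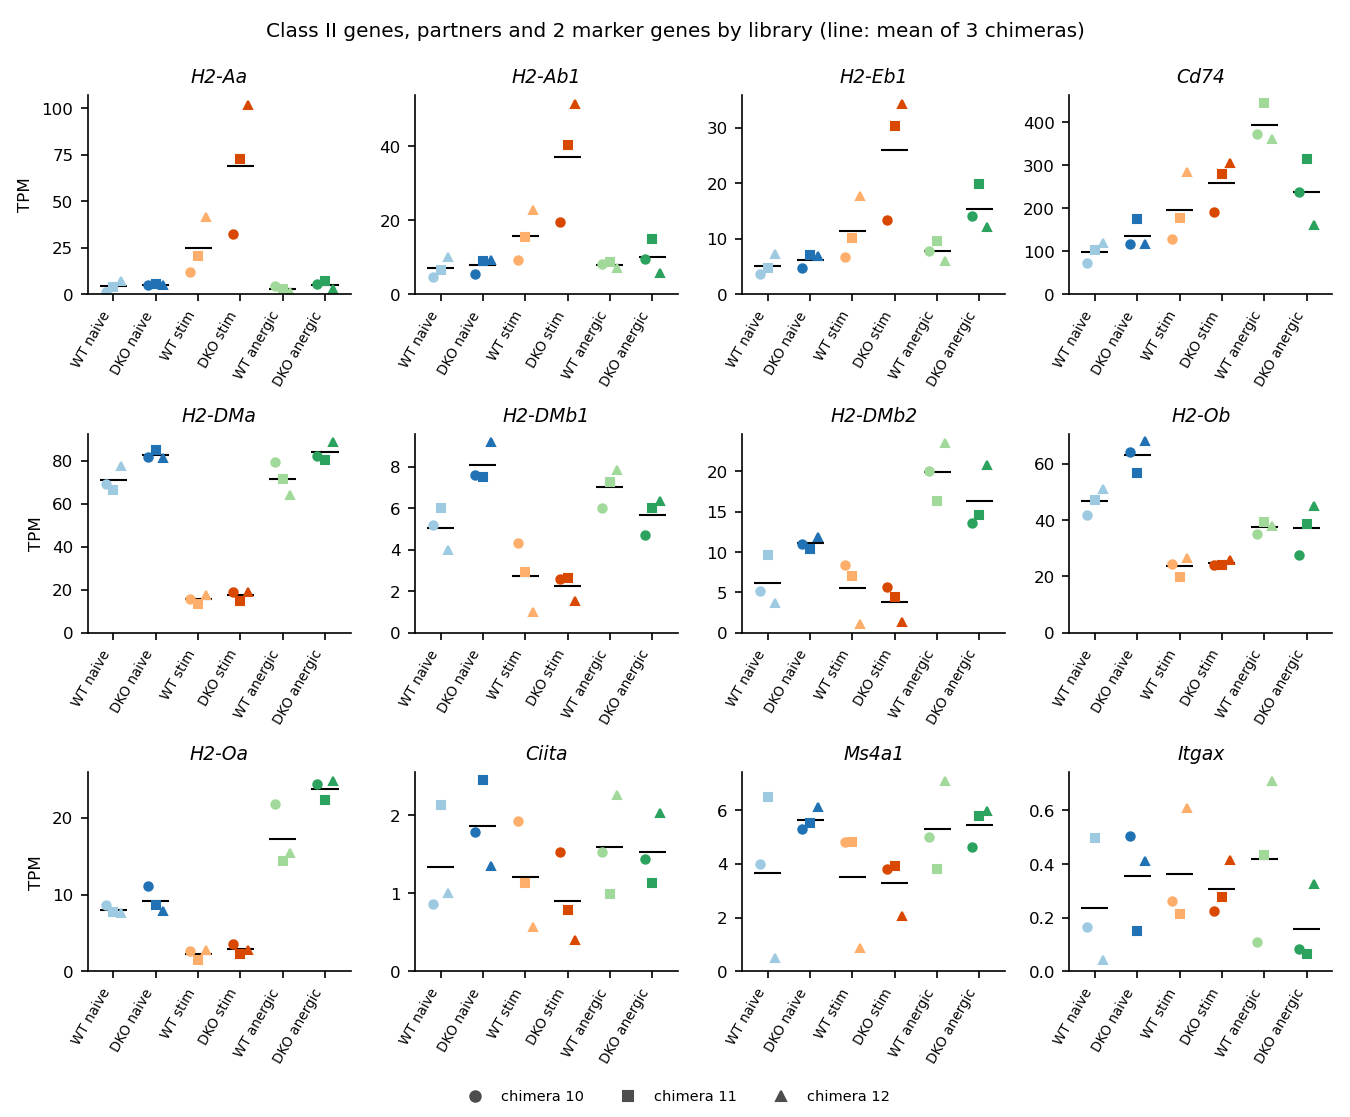
TPM of 8 class II genes and of *Cd74*, *Ciita*, *Ms4a1* and *Itgax* in each of the 18 libraries, with groups by colour, chimeras by marker and the group mean as a line. *H2-Aa* rises from at most 7.19 TPM in naive libraries to 12.1 to 102 TPM after stimulation, while *H2-DMa* falls from 66.5 to 84.8 TPM to 13.1 to 19.1 TPM.

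Among class I genes, *H2-T24* had the largest fall on stimulation, to 18.2, 13.2 and 15.9 TPM in WT and 13.7, 14.3 and 15.9 TPM in DKO cells, from the naive values given above (-2.37 ± 0.23 in both, adjusted p = 5.67e-08 and 5.4e-08). *H2-K2* followed, at 78.2, 59.1 and 79.6 TPM (WT) and 70.6, 55.4 and 57.9 TPM (DKO), against 266 to 337 TPM in naive cells (-1.89 ± 0.25 in both, adjusted p = 6.12e-06 and 5.19e-06). Both falls were called in both genotypes under all 14 alternatives, and the stimulated libraries lay below the anergic ones as well as below the naive ones. *H2-Q10* fell by -1.26 ± 0.39 (adjusted p = 0.0344) and -1.28 ± 0.40 (adjusted p = 0.0294), less firmly than in anergic cells, since both calls were lost without chimera 10 and without chimera 11 (highest adjusted p 0.44 and 0.523). *H2-T23*, the Qa-1 gene, fell in DKO cells from 725, 703 and 761 TPM to 341, 333 and 363 TPM (-0.78 ± 0.26, adjusted p = 0.0474), and in WT cells from 785, 696 and 928 TPM to 375, 374 and 461 TPM, where the test fell short (-0.75 ± 0.26, adjusted p = 0.0684). The DKO call of *H2-T23* was lost under 5 of 14 alternatives (highest adjusted p = 0.631). *H2-Bl* rose in WT cells at a low level, 0.552 to 4.11 TPM over all libraries (1.94 ± 0.51, adjusted p = 0.0106), and the call was lost without chimera 10 and without chimera 11 (highest adjusted p = 0.0974). The classical chains *H2-K1* (0.33 and 0.42) and *H2-D1* did not pass the test.

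**Figure D4:**
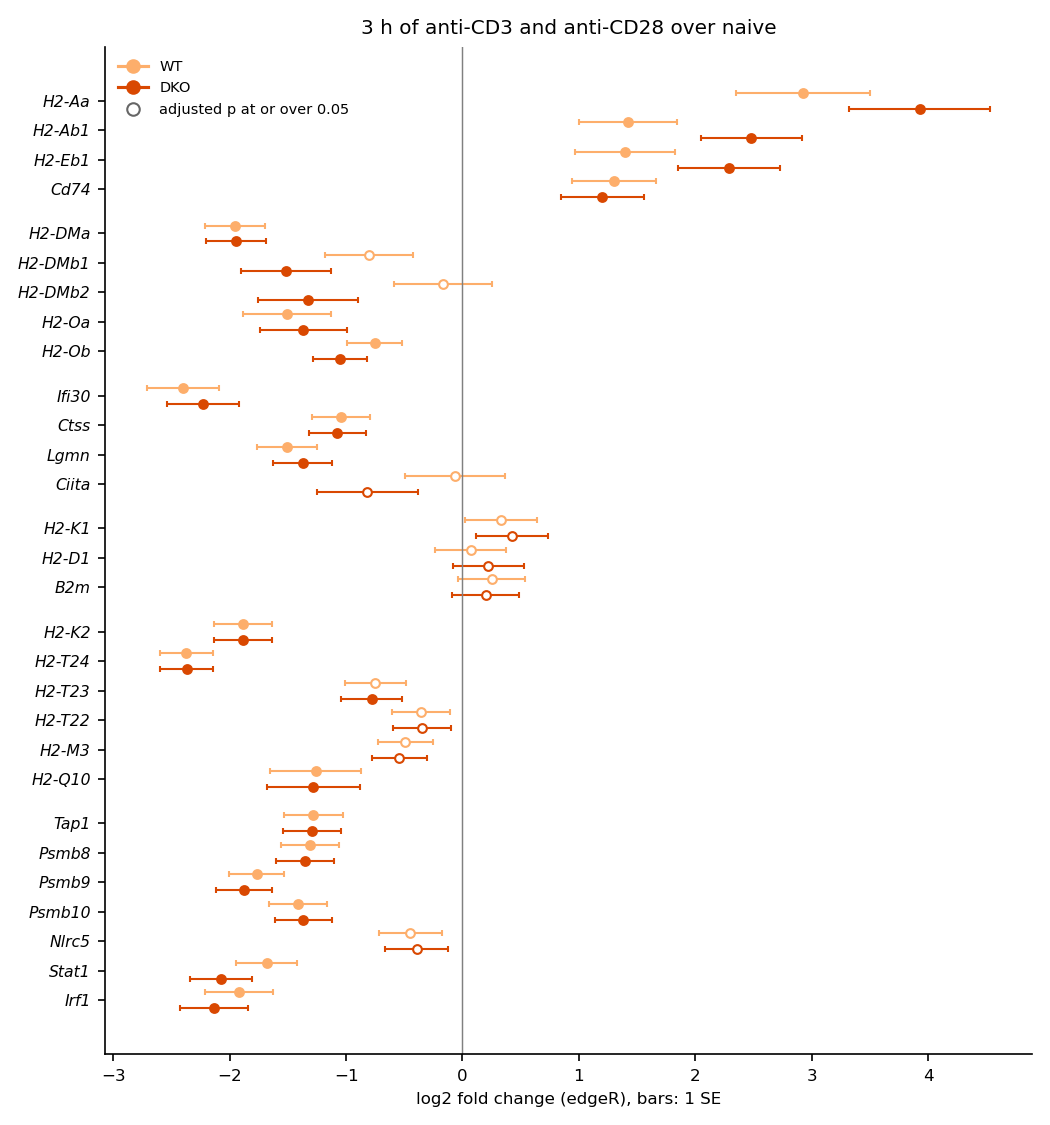
Log2 fold change of stimulated over naive cells for the members and partner genes, in WT and DKO cells, with bars of 1 SE and filled points where the adjusted p was under 0.05. *H2-Aa* (2.93 and 3.93) and *H2-T24* (-2.37 in both) stand at the 2 ends of the members called in both genotypes.

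Genes that work with the MHC chains were read from lists of the class I pathway, the class II pathway and interferon-γ signalling, the cytokine that raises MHC genes in many cells. On stimulation 1 of 15 class I pathway genes rose and 4 fell in WT and in DKO cells, against 1 and 3 of 15 class II pathway genes. *Canx*, a chaperone of new heavy chains, rose by 0.87 and 0.98, while the peptide transporter gene *Tap1* (-1.28 and -1.29) and the immunoproteasome subunit *Psmb9* (-1.77, adjusted p = 6.66e-06, and -1.88, adjusted p = 2.55e-06) fell, as did *Psmb8* and *Psmb10*. In the class II pathway *Ifi30*, a thiol reductase of lysosomes, fell by -2.40 and -2.23, and the proteases *Ctss* and *Lgmn* fell too. Of 14 interferon-γ genes, 4 rose and 6 fell in WT cells and 3 and 6 in DKO cells. The share called over genes with an average above 1 on the log2 CPM scale was 25.2% (WT) and 29.5% (DKO). Among them the factor *Irf1*, which acts at class I promoters, fell by -1.92 and -2.14 and the inhibitor *Socs1* rose by 1.78 and 2.11. *Nlrc5*, the class I transactivator, was not called (-0.45 and -0.39).

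In anergic cells 0 of the 15 class I pathway genes were called in WT cells by edgeR's quasi-likelihood test (3 at an unadjusted p under 0.05) and 1 rose in DKO cells, the chaperone *Calr* (0.84, adjusted p = 0.0329). Of the 15 class II pathway genes 2 rose and 1 fell in WT cells and 2 rose and 0 fell in DKO cells, and of the 14 interferon-γ genes 3 rose and 5 fell in WT cells and 3 rose and 3 fell in DKO cells, beside 19.1% (WT) and 17.9% (DKO) called over genes above 1 on the log2 CPM scale. *Cd74* rose in WT anergic cells by 1.82 ± 0.37 (adjusted p = 0.00103), and its difference of 0.97 ± 0.36 in DKO cells did not pass (adjusted p = 0.104). *Marchf8*, a ubiquitin ligase that removes class II from the surface, rose in both, by 1.38 (adjusted p = 0.0181) and 1.54 (adjusted p = 0.0078). *Ifng* rose by 5.05 and 7.20 and its receptor chains *Ifngr1* (-1.10 and -1.49) and *Ifngr2* (-2.00 and -2.33) fell. *Gbp2*, an interferon-induced guanylate-binding protein, fell in WT anergic cells by -0.84 (adjusted p = 0.0148), and in DKO cells its difference was 0.13.

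DKO cells were compared with WT cells of the same chimeras within each population to ask whether the loss of both receptors moves MHC genes. By edgeR's quasi-likelihood test 0 of 38 members were called in naive, stimulated or anergic cells, where 0.0947%, 0.216% and 1.34% of all genes were called, and DESeq2 called 0 in each as well. At an unadjusted p under 0.05, 4 members passed in naive cells (3 higher in DKO and 1 lower), 5 in stimulated cells (3 and 2) and 4 in anergic cells (2 and 2). The share of all genes at that unadjusted threshold was not counted, so no more is read from these counts. The same holds for the other counts given at an unadjusted p. Median differences of class I and class II genes were -0.12 and 0.30 in naive, -0.20 and 0.14 in stimulated and -0.03 and 0.09 in anergic cells, beside 0.22, -0.01 and -0.03 over all genes tested. They moved with the scaling, to -0.41 and 0.03 in naive cells with RLE factors. In stimulated cells the class I median changed sign without the naive and the stimulated WT library of chimera 12, to 0.07, with a class II median of 0.44.

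The 3 members higher in stimulated DKO cells at an unadjusted p were the class II chains that rose on stimulation. Within chimeras 10, 11 and 12 the DKO over WT ratio of TPM was 2.70, 3.51 and 2.45 for *H2-Aa*, 2.14, 2.61 and 2.26 for *H2-Ab1* and 1.99, 3.02 and 1.95 for *H2-Eb1*, so all 3 were higher in DKO cells in 3 of 3 chimeras. The 3 genes were chosen by their p-values in these same libraries, so that agreement is no separate support. The WT and DKO groups overlapped, because the WT library of chimera 12 was above the DKO library of chimera 10. The differences were 1.35 ± 0.54 for *H2-Aa* (unadjusted p = 0.0196), 1.11 ± 0.41 for *H2-Ab1* (unadjusted p = 0.0125) and 1.05 ± 0.42 for *H2-Eb1* (unadjusted p = 0.0202), each with an adjusted p of 1 in edgeR. All 3 were called without chimera 12 (1.85, 1.46 and 1.53, adjusted p = 0.000505, 0.00168 and 0.00302) and without the naive and the stimulated WT library of chimera 12 (2.49, 1.90 and 1.92, adjusted p = 0.0123, 0.0139 and 0.00724). A fit of the stimulated groups alone called them too (1.53, 1.24 and 1.20, adjusted p = 0.000567, 0.00255 and 0.032), and a fit of all 18 libraries with no low-count filter called *H2-Aa* alone (1.53, adjusted p = 0.00445). None of the 3 was called without chimera 10 (1.32, 1.12 and 1.07, adjusted p = 1), without chimera 11 (1.08, 0.94 and 0.76, adjusted p = 1) or without the WT stimulated library of chimera 12 alone (2.26, 1.79 and 1.81, adjusted p = 0.17, 0.116 and 0.0892). The cause of these shifts was not tested. The genotype difference in the response to stimulation was 1.00, 1.06 and 0.89 for the 3 genes and was called for none (adjusted p = 1). The whole table had 0.00296% of genes called in that difference, and 0 members passed at an unadjusted p under 0.05.

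In anergic cells *H2-Q2* and *H2-Eb1* were the members higher in DKO cells at an unadjusted p under 0.05. They too were chosen by that p in the libraries described next, so the gap between the groups is no separate support. The *H2-Q2* levels were 81.0 ± 9.88 TPM (WT) and 128 ± 12.1 TPM (DKO, both mean ± SD, n = 3), the groups did not overlap, and the difference of 0.87 ± 0.32 had an unadjusted p of 0.0116 and an adjusted p of 0.326. *H2-Eb1* was at 7.70, 9.51 and 6.05 TPM in WT and 14.0, 19.95 and 12.1 TPM in DKO cells, 1.82, 2.10 and 2.00 times higher within chimeras 10, 11 and 12 (1.19 ± 0.43, adjusted p = 0.303). Both were called without chimera 12 (0.69, adjusted p = 0.031, and 1.15, adjusted p = 0.00836), without the 2 WT libraries of chimera 12 (0.91, adjusted p = 0.00298, and 1.19, adjusted p = 0.0178) and in a fit of the anergic groups alone (0.81, adjusted p = 0.00376, and 1.11, adjusted p = 0.0133). Neither was called without chimera 10, without chimera 11 or without the WT stimulated library of chimera 12 alone. The genotype difference in the anergic over naive change was 1.21 for *H2-Q2* (adjusted p = 0.45). Of the 38 members 0 were called in that difference against 0.385% of all genes, with 4 (1 higher and 3 lower) at an unadjusted p under 0.05 and 0 called by DESeq2. *H2-Q5* had 567, 646 and 685 TPM (WT) against 548, 397 and 453 TPM (DKO) in anergic cells and was called lower only by limma on log2 TPM. Without chimera 12, *H2-Q10* (-1.13, adjusted p = 0.0202) and *H2-Pa* (-2.34, adjusted p = 0.0216) were called lower in DKO cells.

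Of the partner genes 1 of 15 in the class II pathway and 1 of 14 in the interferon-γ list were called between DKO and WT anergic cells, beside 1.34% of all genes and 2.57% of genes above 1 on the log2 CPM scale. In naive and stimulated cells edgeR called 0 of the 3 lists, with 1 and 2 interferon-γ genes at an unadjusted p under 0.05. The genes called were *Ctsl*, the lysosomal protease cathepsin L that trims the invariant chain in thymic epithelium, and *Gbp2* (0.89, adjusted p = 0.0447). *Ctsl* was at 11.7, 13.6 and 7.8 TPM in WT and 24.6, 31.5 and 25.7 TPM in DKO anergic cells, with no overlap (1.52 ± 0.27, adjusted p = 0.00187).

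**Figure D5:**
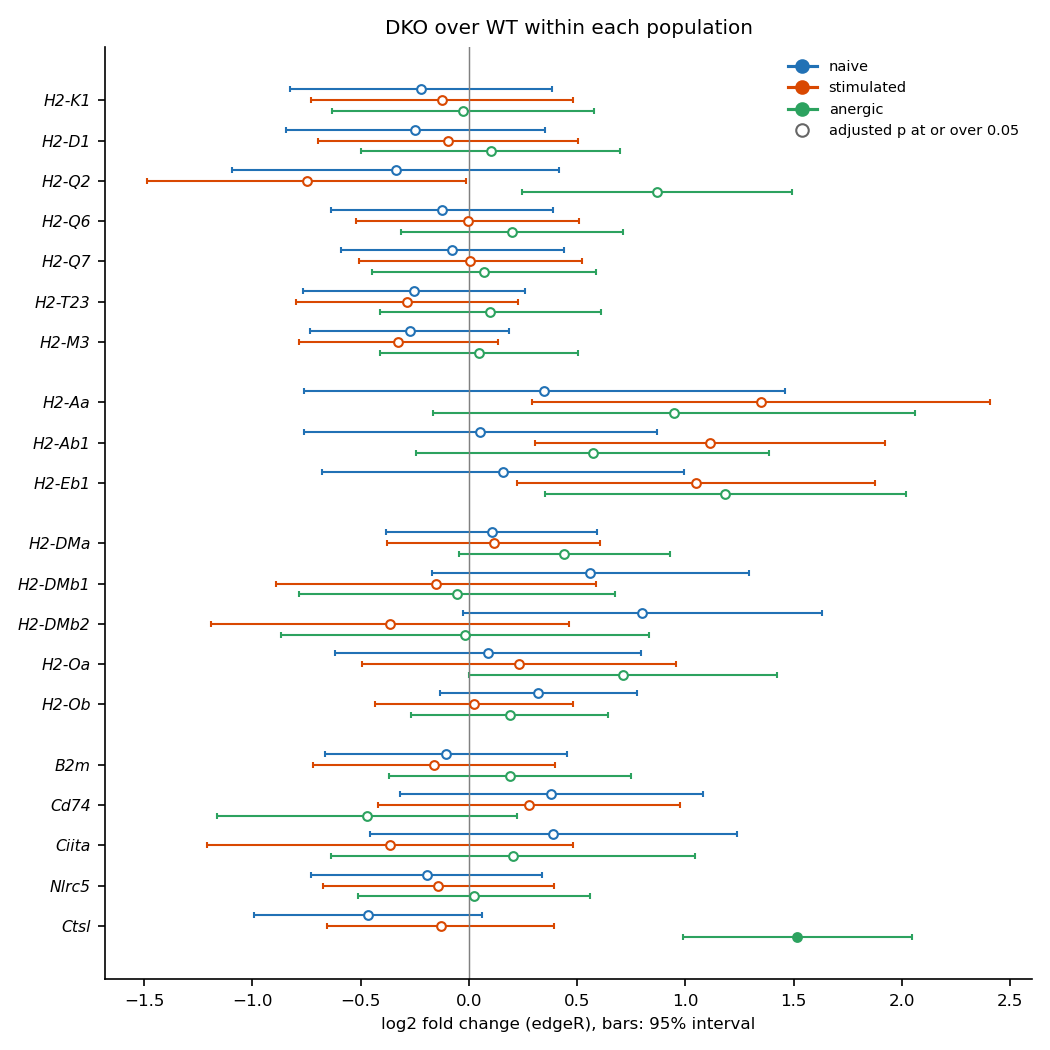
Log2 fold change of DKO over WT cells in the naive, stimulated and anergic populations for the members and partner genes, with bars of the 95% interval and filled points where the adjusted p was under 0.05. None of the members is filled, *Ctsl* in anergic cells (1.52) is, and *H2-Aa*, *H2-Ab1* and *H2-Eb1* lie at 1.35, 1.11 and 1.05 in stimulated cells.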

How the data were processed

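RNA from sorted cells (2000-cell equivalents per library) was amplified with SMART-seq v4, made into Nextera XT libraries and sequenced as paired reads, for which the labels give both 75 and 100 bases. Reads were trimmed (fastp), aligned to mm10 (STAR) and counted (featureCounts) by the authors, who deposited whole-number counts per gene and a table of TPM; versions, annotation, gene lengths, strandedness and the handling of multi-mapped reads were not stated in the labels or methods. Their deposited workbook also holds the authors' own edgeR comparison sheets (fold changes, p-values), which were not used. Entries with no gene name (117 of 55401) held 0.0654% to 0.136% of counts and were left out.

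Counts were tested with edgeR 4.0.16 in R 4.3.3 (TMM factors, filterByExpr, quasi-likelihood test, prior count 2) in 1 fit of all 18 libraries, with terms for the 6 groups and for chimera as the block, as in the paired analysis of the study's methods, over 9 comparisons. The p-values were adjusted by Benjamini and Hochberg over all 33795 genes tested, and adjusted p means this throughout. An SE was taken as the log2 fold change over the root of the F statistic. The chimera number pairs samples because all 6 libraries of a number come from 1 animal. The deviations of the 9 WT and DKO pairs correlated at -0.0811 to 0.298 (median 0.0429, 3 over 0.1). The fit was tested on simulated data with 200 changed genes, drawn from genes with an average above 1 on the log2 CPM scale. Of log2 changes of 1 and 2 it called 27% and 87% for stimulated over naive WT and 29% and 83% for anergic over naive WT. For DKO over WT anergic cells it called 21% and 89%. These shares do not cover members below that level. No 2 replicates agreed within sampling noise (chi-square per gene of 6.96 to 43.6), and they are separate chimeras. TPM served for levels. Alternatives were a fit with no chimera block, RLE factors, DESeq2 1.42.0, no filter, other gene sets, limma 3.58.1 on log2(TPM + 1) and log2(TPM + 0.1), and libraries left out. Promoters and annotation came from RefSeq GRCm38.p6 and GENCODE vM21.

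The members, the pathway and marker lists and the named genes were chosen with earlier results of these data known. Named were the members called in a comparison, the classical chains and the members with lower p between genotypes.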

Additional observations from a re-analysis of the deposited data

Results flagged for a closer look

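*Ctsl*, a class II pathway protease, was picked out because its anergic over naive change differed between genotypes when that difference itself was tested. The change was 0.31 (adjusted p = 0.58) in WT cells and 2.29 ± 0.28 (adjusted p = 1.09e-06) in DKO cells, and the difference of 1.98 ± 0.38 had an adjusted p of 0.0129 in edgeR. No H2 gene had such a difference.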

How the results depend on the processing

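Of 36 called member results, 15 were called under all 14 alternatives, 21 were lost under at least 1 and 0 changed direction. The causes of the shifts were not tested. With no chimera block (the replicate pairing left out) the counts of called members were 7 and 5 for anergic WT and DKO cells (8 and 6 with it), 9 and 11 for stimulated WT and DKO cells (10 and 12 with it) and 0 in every genotype comparison. Without the block *H2-T22* in WT anergic, *H2-Eb1* in DKO anergic, *H2-Ob* in WT stimulated and *H2-T23* in DKO stimulated cells were no longer called. Leaving out 1 chimera at a time gave 3 to 13 (anergic WT), 3 to 14 (anergic DKO), 4 to 15 (stimulated WT), 6 to 12 (stimulated DKO), 0 to 3 (DKO over WT stimulated) and 0 to 4 (DKO over WT anergic). Limma on log2(TPM + 1) and log2(TPM + 0.1) called 19 and 19 members for stimulated WT, 21 and 21 for stimulated DKO and 15 and 16 for anergic DKO cells, 1 each for DKO over WT anergic (*H2-Q5*), and on log2(TPM + 1) 14 for anergic WT cells. Genes with a log2 CPM average above 1 alone gave 13 for both anergic comparisons, and TMM factors from those genes 13 for anergic DKO cells. A fit of the groups compared alone gave 15 (anergic DKO), 3 (DKO over WT stimulated) and 2 (DKO over WT anergic), and no low-count filter 1 (DKO over WT stimulated, *H2-Aa*). Without the naive and the stimulated WT library of chimera 12 the counts were 13 (anergic DKO), 3 (DKO over WT stimulated) and 2 (DKO over WT anergic). Without its WT stimulated library alone, an alternative chosen after seeing the data, anergic DKO gave 12. Scaling moved the median of all genes, for DKO over WT naive from 0.22 to 0.02 with RLE factors. *H2-Pa* and *H2-Eb2* had at most 44 reads in a library.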
